A study of Mus musculus with 6 samples.

Results

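Striatal projection neurons are the main neurons of the striatum, and 9 of their marker genes were followed in mouse brain after transient occlusion of the middle cerebral artery. They were chosen by name from the expression table: Drd1 (listed there under its older name Drd1a), Drd2, Ppp1r1b, Rgs9, Pde10a, Pde1b, Rarb, Bcl11b and Isl1. All 9 were found among 23473 rows with a gene symbol, and all 9 passed the filter on low counts. Total RNA of brain from adult male C57BL/6 mice, 8 to 9 weeks old and weighing 22 to 25 g, was sequenced in 2 groups of 3 libraries after removal of ribosomal RNA. The group named I1h/R6h had the artery blocked by a filament for 60 min (1 h of ischemia) and was given 6 h of reperfusion after the filament was withdrawn. The Sham group had the same surgery without insertion of the filament. Mice of both groups were anesthetized with chloral hydrate, and the occlusion was on the right side. The labels name the tissue only as brain, with no region or side, and do not say whether each library is 1 animal, so a p-value here reflects the spread among these 6 libraries alone, part of which could be technical.

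The striatum is the input station of the basal ganglia, and most of its neurons are inhibitory projection neurons that receive dopamine. Those of the direct pathway carry the D1 dopamine receptor, which raises cyclic AMP, and those of the indirect pathway carry the D2 receptor, which lowers it. Cyclic AMP acts on DARPP-32 (encoded by Ppp1r1b), is degraded by phosphodiesterases such as Pde10a and Pde1b, and receptor signals are shortened by Rgs9. The striatum lies within the territory of the middle cerebral artery and is commonly injured when this artery is blocked. Rarb, Bcl11b and Isl1 encode transcription factors of these neurons during development.

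Libraries held 45425867 to 48563351 counts in I1h/R6h and 48130054 to 49686109 counts in Sham. The labelled tissue matched its markers: all 11 pan-neuronal genes listed were measured, and their mean centred level varied by 0.12 on the log2 scale over the 6 libraries. Libraries of the same group differed widely in markers of single brain regions, and values for these are given beside the results they touch.

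None of the 9 genes differed between I1h/R6h and Sham beyond the spread between libraries. With edgeR's quasi-likelihood test, Benjamini-Hochberg adjusted over 40170 rows, 0 of 9 passed an adjusted p of 0.05, where 0.00249% of all rows tested did. At an unadjusted p under 0.05 there were also 0 of 9, against 15.6% of all rows (8.73% with I1h/R6h higher), and DESeq2 called 0 of 9, against 1.8% of the rows to which it gave an adjusted p. The 2 groups overlapped for every one of the 9 genes, whereas 10.8% of all rows tested lay wholly higher in I1h/R6h and 10.8% wholly lower (7.37% and 14.2% of gene-symbol rows). What the 9 genes shared was the highest library of each group, while their full library orders were of 6 kinds. All 9 were highest in I1h/R6h replicate 1, as were 19.5% of gene-symbol rows and 19.3% of all rows tested, and in all 9 the highest Sham library was replicate 3. The lowest of the 6 libraries was Sham replicate 2 for 8 of them by RPKM. By normalised log2 CPM it was so for 7 of them, as for 14.4% of gene-symbol rows. In bulk tissue, a different number of such neurons and a different amount of RNA per neuron cannot be told apart.

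**Figure D1:**
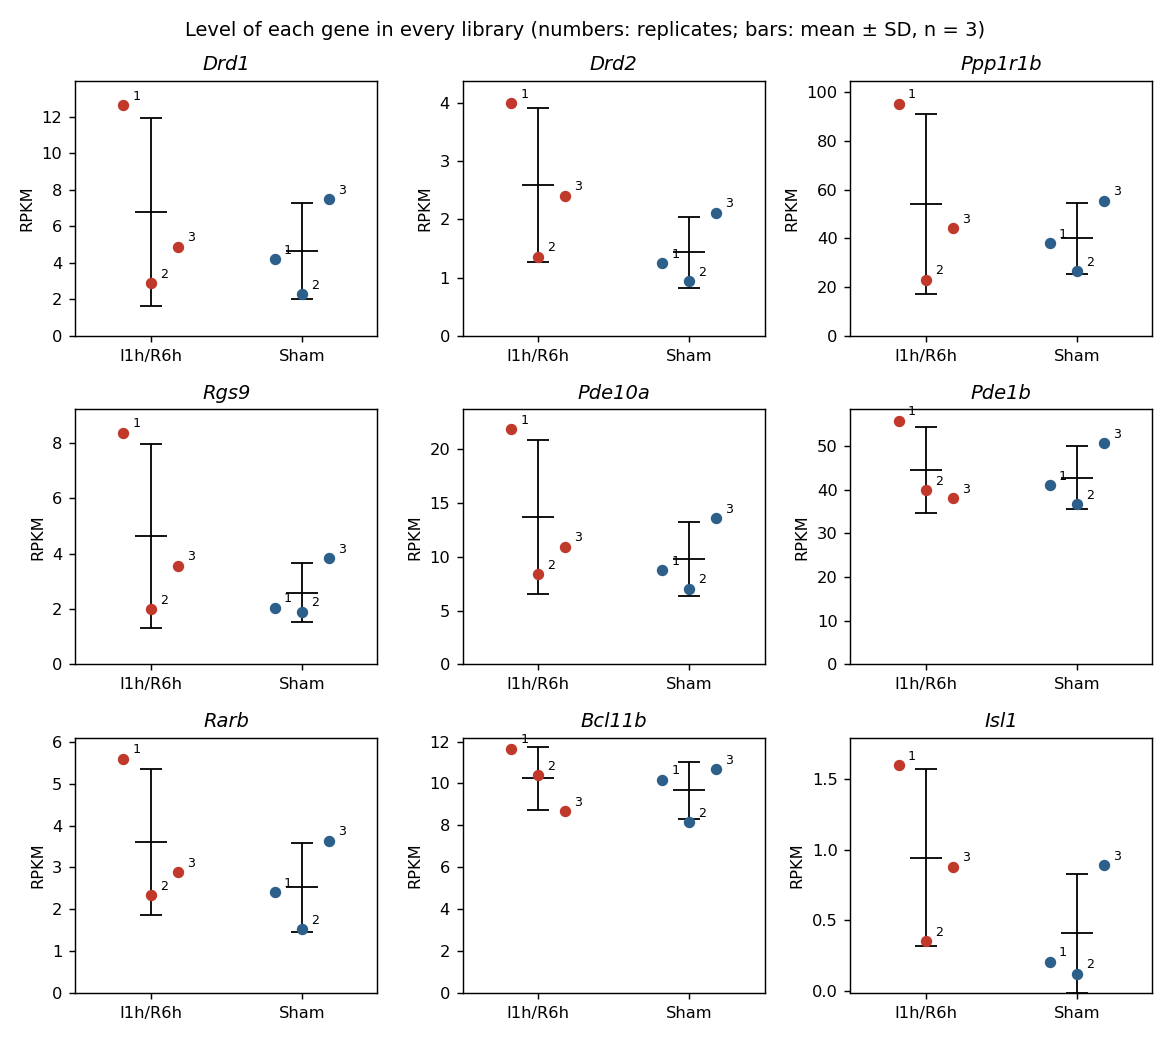
Deposited RPKM (counts scaled to row length and library total) of the 9 genes, with 1 point per library numbered by replicate, I1h/R6h in red and Sham in blue, and bars for the mean ± SD (n = 3 each). I1h/R6h replicate 1 is the highest point in every panel and Sham replicate 3 the highest blue point, while the groups overlap throughout.

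Among the 9, levels per length spanned a wide range. Averaged over the 6 libraries, Ppp1r1b (47.0 RPKM) and Pde1b (43.6 RPKM) were the most abundant, and their ranges over libraries overlapped. Pde10a (11.8 RPKM) and Bcl11b (9.96 RPKM) followed, also with overlapping ranges, then Drd1 (5.73 RPKM), Rgs9 (3.62 RPKM), Rarb (3.06 RPKM) and Drd2 (2.01 RPKM). Isl1 was the least abundant at 0.675 RPKM, so that its values rest on 15 to 196 counts per library.

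The dopamine receptors were measured first, since they tell the direct from the indirect pathway. Drd1, on chromosome 13 from 54051183 to 54055658 (mm10), had 12.6, 2.89 and 4.89 RPKM in I1h/R6h replicates 1, 2 and 3, against 4.21, 2.27 and 7.47 RPKM in Sham replicates 1, 2 and 3. I1h/R6h replicate 2 lay below 2 of the Sham libraries, and the highest I1h/R6h library was 4.38 times the lowest. Within Sham the corresponding ratio was 3.29. The means were 6.81 ± 5.15 RPKM in I1h/R6h and 4.65 ± 2.63 RPKM in Sham (SD, n = 3 each). The log2 fold change was 0.49 ± 0.74 (SE, edgeR adjusted p = 0.793). Drd2, on chromosome 9 from 49340662 to 49407214, had 3.99, 1.36 and 2.40 RPKM in I1h/R6h, against 1.25, 0.939 and 2.11 RPKM in Sham, in the same order of replicates. Here 2 I1h/R6h libraries lay above every Sham library and the remaining one between Sham replicates 1 and 3. With 97 to 300 counts in I1h/R6h and 70 to 160 in Sham, its log2 fold change was 0.79 ± 0.42 (SE, edgeR adjusted p = 0.401), the smallest p of the 9 genes (0.096 unadjusted).

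The ratio of the 2 receptors within a library is free of library scaling. Drd1 stood at 3.17, 2.13 and 2.04 times Drd2 (RPKM ratio) in I1h/R6h replicates 1, 2 and 3, against 3.38, 2.42 and 3.54 times in Sham. The log2 ratio averaged 1.26 ± 0.35 in I1h/R6h and 1.62 ± 0.30 in Sham (SD, n = 3 each). I1h/R6h replicate 1 lay between the Sham libraries, so the groups overlapped. The difference of −0.36 had an exact permutation p of 0.2 (two-sided), where 3 against 3 libraries cannot go below 0.1. The ratio spanned a range of less than a factor of 2 over the 6 libraries, while Drd1 itself varied 5.56 times and Drd2 4.25 times.

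Windows around a RefSeq start site of each receptor gene (build GRCm38.p6, 250 bases before to 50 after the start, on the gene's strand) are shown because the 2 genes moved together from library to library. Capitals mark CG dinucleotides, of which each window shown holds 23, against a median of 7 over all 32851 windows. This was not particular to the receptors, since a window each of Isl1, Pde1b, Pde10a, Rgs9 and Rarb held 37, 28, 23, 19 and 17. That of Bcl11b held 9, and further windows of Pde10a and Pde1b held 1 to 5. A link between CG number and library profile was not tested. RefSeq gives Drd1 another start site, whose window, not shown, holds 6. The Drd1 window shown is that of the start site at the end of the deposited row.
Drd1, chr13:54055609-54055908, minus strand: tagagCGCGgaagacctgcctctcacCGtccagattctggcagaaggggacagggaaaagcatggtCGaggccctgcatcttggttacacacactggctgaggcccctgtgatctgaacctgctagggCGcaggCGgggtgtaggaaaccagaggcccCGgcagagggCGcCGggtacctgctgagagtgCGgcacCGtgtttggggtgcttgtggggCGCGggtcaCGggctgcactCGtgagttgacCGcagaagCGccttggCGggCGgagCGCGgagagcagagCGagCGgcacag
Drd2, chr9:49340153-49340452, plus strand: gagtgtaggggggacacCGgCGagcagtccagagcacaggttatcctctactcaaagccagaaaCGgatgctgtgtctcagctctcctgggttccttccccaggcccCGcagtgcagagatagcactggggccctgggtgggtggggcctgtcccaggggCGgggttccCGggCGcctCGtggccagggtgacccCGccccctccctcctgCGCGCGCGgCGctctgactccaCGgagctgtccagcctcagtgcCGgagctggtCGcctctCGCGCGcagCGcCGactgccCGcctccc
The GC content was 65.7% for the Drd1 window shown, 59.3% for the other Drd1 window and 70.3% for Drd2, against a median of 52.7%. None of these windows held the palindromic cAMP response element TGACGTCA, its shorter core TGACG or TATAAA on either strand, letters that 1.79%, 20.8% and 13.6% of all windows hold. The core is part of the full element, and its absence says only that these letters are not in these windows.

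Of the signalling genes downstream of the receptors, Ppp1r1b encodes DARPP-32, which inhibits protein phosphatase 1 once protein kinase A has phosphorylated it. Ppp1r1b, on chromosome 11 from 98348738 to 98357795, had 95.1, 23.0 and 44.1 RPKM in I1h/R6h replicates 1, 2 and 3, against 37.9, 26.5 and 55.5 RPKM in Sham. The I1h/R6h libraries held both the highest and the lowest of the 6 values, 4.13 times apart. Its log2 fold change was 0.38 ± 0.62 (SE, edgeR adjusted p = 0.81). The row 1700003D09Rik lies on the opposite strand and shares 7078 bases of span with Ppp1r1b, at 17.9% of its RPKM. No source used here says that counting used strand, so reads of these 2 genes cannot be told apart.

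Rgs9 speeds the shut-off of G protein signals, and its longer splice form is enriched in striatum. It lies on chromosome 11 from 109225355 to 109298181 and had 8.37, 2.01 and 3.57 RPKM in I1h/R6h, against 2.05, 1.90 and 3.84 RPKM in Sham. I1h/R6h replicate 1 stood well above every other library, and the other 5 values of the 2 groups interleaved. The log2 fold change was 0.78 ± 0.64 (SE, edgeR adjusted p = 0.611).

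Pde10a and Pde1b encode phosphodiesterases, the first acting on cyclic AMP and cyclic GMP and highly enriched in striatum, the second activated by calcium and calmodulin. Pde10a, on chromosome 17 from 8801745 to 8986648, had 21.8, 8.38 and 10.9 RPKM in I1h/R6h, against 8.74, 7.04 and 13.6 RPKM in Sham. Its log2 fold change was 0.43 ± 0.45 (SE, edgeR adjusted p = 0.693), and the library order was that of Drd1. Pde1b, on chromosome 15 from 103503298 to 103530052, had 55.8, 39.8 and 38.0 RPKM in I1h/R6h, against 41.0, 36.6 and 50.6 RPKM in Sham. This was a flatter profile, with the highest library 1.53 times the lowest, and a log2 fold change of 0.003 ± 0.157 (SE, edgeR adjusted p = 0.994) that turned negative with RLE scaling (−0.007). Pde1b is also expressed in cortex and hippocampus.

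The transcription factor genes gave the narrowest and the widest profiles. Bcl11b (also called Ctip2), on chromosome 12 from 107910403 to 108003414, is needed for maturation of striatal neurons and marks deep-layer cortical neurons too. It had 11.7, 10.4 and 8.69 RPKM in I1h/R6h, against 10.2, 8.14 and 10.7 RPKM in Sham. The highest library was 1.43 times the lowest, and the log2 fold change was 0.03 ± 0.13 (SE, edgeR adjusted p = 0.931).

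Rarb encodes retinoic acid receptor beta, which acts as a dimer with retinoid X receptors. It lies on chromosome 14 from 16430840 to 16575210 and had 5.60, 2.33 and 2.88 RPKM in I1h/R6h, against 2.41, 1.53 and 3.64 RPKM in Sham. Its libraries fell in the order of Drd1, with a log2 fold change of 0.46 ± 0.43 (SE, edgeR adjusted p = 0.646). The clone row fantom3_D330024O17, on the opposite strand, overlaps one end of the Rarb row, and reads there cannot be told apart without strand. Isl1 encodes a LIM homeodomain factor of direct pathway neurons and of cholinergic interneurons. It lies on chromosome 13 from 116298270 to 116309688 and was counted 196, 41 and 101 times in I1h/R6h replicates 1, 2 and 3, against 26, 15 and 110 times in Sham. Its lowest I1h/R6h library exceeded 2 Sham libraries and Sham replicate 3 exceeded 2 I1h/R6h libraries, so the groups overlapped despite the largest fold change of the 9. The log2 fold change was 1.16 ± 0.87 (SE, edgeR adjusted p = 0.57), and Isl1 varied 12.95 times over the 6 libraries.

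Windows of Rarb and Isl1 from the same RefSeq table are shown as the 2 among the 9 genes that hold a response element searched for. Capitals mark, in Rarb, a retinoic acid response element (a direct repeat with 5 bases between its copies) and, in Isl1, 2 copies of the cAMP response element core TGACG, of which the second is on the opposite strand.
Rarb, chr14:16575427-16575726, minus strand: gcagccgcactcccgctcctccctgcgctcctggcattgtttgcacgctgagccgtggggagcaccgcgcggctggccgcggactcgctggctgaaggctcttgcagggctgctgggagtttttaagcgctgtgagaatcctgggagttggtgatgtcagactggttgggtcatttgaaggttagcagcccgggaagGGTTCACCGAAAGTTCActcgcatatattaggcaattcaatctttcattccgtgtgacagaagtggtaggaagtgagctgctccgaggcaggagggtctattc
Isl1, chr13:116309639-116309938, minus strand: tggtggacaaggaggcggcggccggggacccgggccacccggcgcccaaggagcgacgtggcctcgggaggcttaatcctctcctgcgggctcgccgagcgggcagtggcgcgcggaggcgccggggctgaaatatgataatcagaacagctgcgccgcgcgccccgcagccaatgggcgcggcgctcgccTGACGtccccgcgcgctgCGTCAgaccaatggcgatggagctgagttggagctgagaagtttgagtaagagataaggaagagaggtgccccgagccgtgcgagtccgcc
The Rarb repeat begins 53 bases before the RefSeq start site, and such a repeat occurred in 32 of all 32851 windows (0.0974%). The Isl1 cores begin 59 and 41 bases before the start. Windows were found for 8 of the 9 genes, 12 windows in all, and TATAAA occurred in 1 window each of Bcl11b, Pde1b and Rgs9. No window of the 9 genes held TGACGTCA. A match in letters is a description and not evidence of binding, and the expression table does not tell which start site was used.

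The log2 fold changes of the 9 genes were all above 0 in the edgeR fit, with a median of 0.46, against 53.1% of all rows tested (44.2% of gene-symbol rows) and a median of 0.02 over all rows (8 of 9 with RLE scaling, where Pde1b was below 0). This direction rested on I1h/R6h replicate 1. Without that library 3 of 9 were above 0, namely Drd2 (0.33), Rgs9 (0.04) and Isl1 (0.53), and the median was −0.07. Drd1 then had −0.32 and Ppp1r1b −0.31. Without Sham replicate 3, 9 of 9 were above 0 with a median of 0.80, and without Sham replicate 2 the number was 7 with a median of 0.20. No gene of the 9 passed the adjusted threshold in any of the 14 alternative fits. Taken one library at a time, I1h/R6h replicate 1 exceeded the highest Sham library in 9 of 9 genes (normalised log2 CPM). I1h/R6h replicate 3 did so in 1 gene and replicate 2 in 0.

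**Figure D2:**
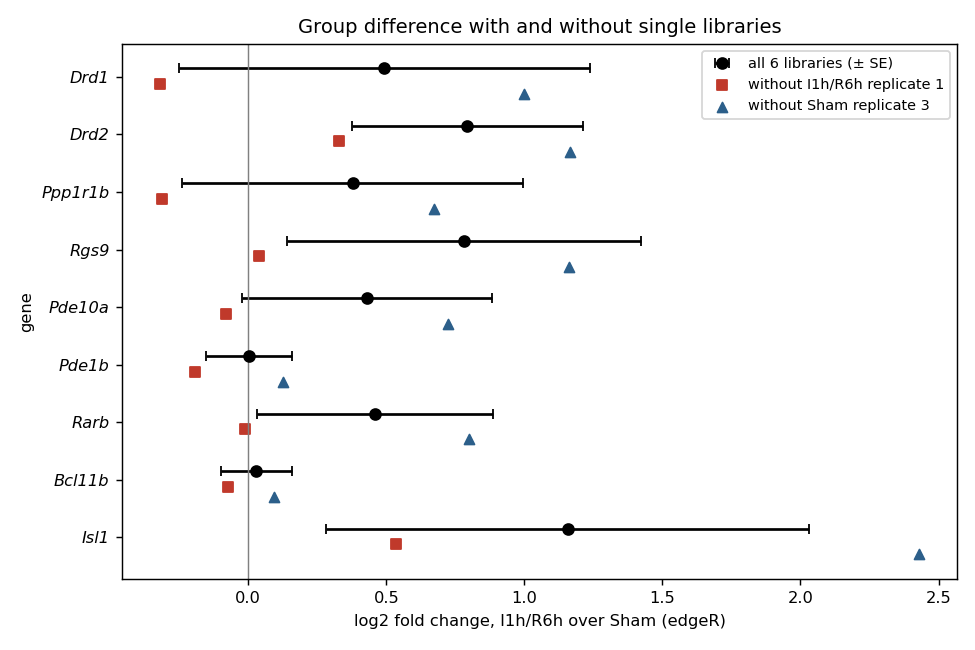
Log2 fold change of I1h/R6h over Sham for each gene from edgeR, with all 6 libraries (black circles, bars are ± SE), without I1h/R6h replicate 1 (red squares) and without Sham replicate 3 (blue triangles). Drd1 is at 0.49 with all libraries, at −0.32 without I1h/R6h replicate 1 and at 1.00 without Sham replicate 3.

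The spread between libraries was large compared with other genes. Over the 6 libraries, normalised log2 CPM of Drd1 ranged over 2.39, wider than in 98.8% of 15413 gene-symbol rows with a mean of at least 0.5 CPM, whose median range was 0.49. The corresponding share was 99.5% for Isl1, 98.0% for Rgs9, 97.9% for Ppp1r1b, 97.7% for Drd2, 96.9% for Rarb and 95.4% for Pde10a. For Pde1b it was 58.8% and for Bcl11b 41.6%. Among the Sham libraries alone, the range of Drd1 (1.68) was wider than in 99.2% of these rows. The wide range was thus present among Sham libraries too.

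Drd1, Rgs9, Pde10a and Rarb shared 1 exact order of libraries from high to low, namely I1h/R6h replicate 1, Sham replicate 3, I1h/R6h replicate 3, Sham replicate 1, I1h/R6h replicate 2 and Sham replicate 2. This order held for 0.318% of gene-symbol rows tested (normalised log2 CPM). The mean profile of the 9 genes, as log2 CPM minus its own 6-library mean, was 1.01, −0.42 and 0.10 in I1h/R6h replicates 1, 2 and 3 and −0.33, −0.76 and 0.40 in Sham. Pde10a and Rarb were closest to it, with a root mean square difference of 0.10 each, and Isl1 farthest at 0.69. Likeness to this profile was then measured in the same way in 11721 other gene-symbol rows with a mean of at least 5 CPM. The closest 10 lay at 0.11 to 0.26, where the median was 0.61. Being picked as the closest, they lie below the median by choice. In order, 9 of them are 1700003D09Rik, Rasd2, Actn2, Sox11, Ptpro, Adcy5, Syndig1l, Lrrc10b and Cpne5. The first of these overlaps Ppp1r1b on the other strand, as given above. Rasd2 (the striatal small GTPase Rhes), Adcy5 (the main striatal adenylyl cyclase), Actn2 and Syndig1l are among the 25 genes listed for both types of projection neuron.

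**Figure D3:**
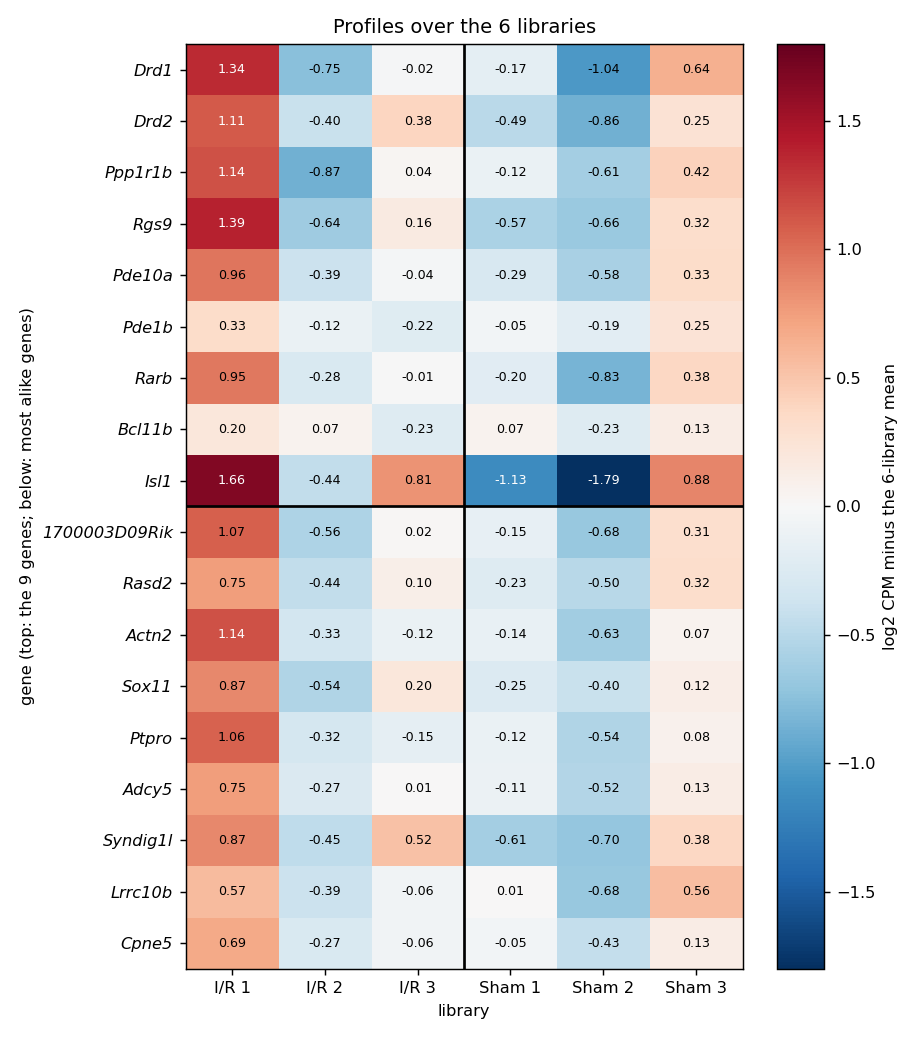
Log2 CPM minus the 6-library mean of each gene, for the 9 genes (top) and 9 of the most alike other genes (below), with I1h/R6h libraries left of the line and Sham libraries right of it. The column of I1h/R6h replicate 1 is positive for every gene, at 1.34 for Drd1 and 0.20 for Bcl11b, and that of Sham replicate 2 is negative for every gene. The lower genes were picked for likeness to the mean profile of the 9, so they follow it by choice.

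Genes listed beside the 9 for both types of projection neuron numbered 25, and all were tested. Of these 17 had a log2 fold change above 0 and 8 below, 0 passed the edgeR threshold, and the median was 0.19. Before adjustment 2 genes had p under 0.05 and were higher (Rgs4 and Ptpn5), 1 was lower (Camk4), and DESeq2 called 1, Camk4. Of the 25, 16 were highest in I1h/R6h replicate 1 (normalised log2 CPM). Adcy5 had 42.6, 20.5 and 25.5 RPKM in I1h/R6h, against 22.4, 16.6 and 26.7 RPKM in Sham. Camk4, a calcium-dependent kinase expressed in many neurons, had 19.5, 17.4 and 15.4 RPKM in I1h/R6h, against 22.7, 20.3 and 25.2 RPKM in Sham. Its groups did not overlap. The difference of −0.44 ± 0.11 on the log2 scale (SE) had an adjusted p of 0.159 in edgeR and 0.0449 in DESeq2. Rgs4, another regulator of G protein signals, was also apart between groups, at 132, 109 and 115 RPKM in I1h/R6h and 82.4, 94.7 and 103 RPKM in Sham (edgeR adjusted p = 0.256). Ptpn5, the striatum-enriched phosphatase STEP, had a log2 fold change of 0.34 (edgeR adjusted p = 0.306), and that of Gng7, a G protein subunit, was 0.52 (0.346).

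Direct pathway genes had 5 of 8 log2 fold changes above 0, with a median of 0.11, and 0 called by edgeR, by DESeq2 or at an unadjusted p under 0.05. Tac1, the precursor of substance P, had 32.8, 11.4 and 14.6 RPKM in I1h/R6h, against 13.3, 13.4 and 16.1 RPKM in Sham. Pdyn, the dynorphin precursor, had 18.4, 8.65 and 10.1 RPKM in I1h/R6h, against 6.39, 7.48 and 10.1 RPKM in Sham. Both were highest in I1h/R6h replicate 1, and the groups overlapped. By normalised log2 CPM 4 of the 8 genes were highest in that library, against 19.5% of gene-symbol rows. Eya1 and Ebf1 were lowest there, and 0 of the 8 were lowest in Sham replicate 2. Slc35d3 had a log2 fold change of 0.44 (edgeR adjusted p = 0.521), and Sfxn1 one of −0.10 (0.689).

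Indirect pathway genes had 8 of 9 log2 fold changes above 0, with a median of 0.44, 0 called by edgeR or DESeq2, and 1 at an unadjusted p under 0.05 (Sp9). Without I1h/R6h replicate 1 this median was −0.21. Penk, the enkephalin precursor, had 92.2, 19.8 and 28.0 RPKM in I1h/R6h, against 29.1, 18.3 and 41.7 RPKM in Sham. Adora2a, the adenosine receptor of indirect pathway neurons, was counted 1123, 253 and 389 times in I1h/R6h, against 330, 79 and 757 times in Sham, and followed the library order of Drd1. Its range of 14.1 times over the 6 libraries was larger than that of any of the 9 genes. Sp9, a transcription factor needed for indirect pathway neurons, was counted 465, 210 and 186 times in I1h/R6h, against 176, 93 and 182 times in Sham. It was the 1 indirect pathway gene whose groups did not overlap, with a log2 fold change of 0.93 ± 0.37 (SE, edgeR adjusted p = 0.296). Grik3, Plxdc1 and Upb1 had log2 fold changes of 0.22, 0.20 and 0.51.

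Dopamine and cAMP signalling genes varied little between libraries as a list. Of 32 listed, 31 were tested, with 11 log2 fold changes above 0, 20 below and a median of −0.09. The number called was 0 with edgeR and 0 with DESeq2, and before adjustment p was under 0.05 for 1 gene that was higher and 4 that were lower. The mean centred level of the list ranged over 0.10 in the 6 libraries, against 1.77 for the 9 genes. In such a mean, opposite movements of single genes can cancel. Drd4 varied 4.64 times over the 6 libraries, Adcy1 1.775 times and Prkaca 1.06 times. Gnao1, a G protein subunit coupled to D2-type receptors, had 21.1, 26.5 and 27.9 RPKM in I1h/R6h, against 18.1, 16.2 and 19.5 RPKM in Sham, with a log2 fold change of 0.43 ± 0.12 (SE, edgeR adjusted p = 0.171). Prkacb (−0.22), a catalytic subunit of protein kinase A, Ppp1cb (−0.23), one of protein phosphatase 1, and the phosphodiesterase Pde4d (−0.24) were lower in each I1h/R6h library than in each Sham library, with edgeR adjusted p of 0.272 to 0.290. By normalised log2 CPM 5 of the 31 tested genes lay wholly lower in I1h/R6h and 1 wholly higher. Among gene-symbol rows 14.2% lay wholly lower and 7.37% wholly higher. Drd3, a D2-type receptor of the ventral striatum, failed the filter on low counts, with 47, 5 and 6 counts in I1h/R6h, against 3, 0 and 5 in Sham. Its count of 0 in Sham replicate 2 allows up to 0.0623 CPM (3 counts, counting error only).

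Retinoid signalling genes, set beside Rarb, had 7 of 14 log2 fold changes above 0, 0 called by edgeR, 1 by DESeq2 and a median of 0.04, while before adjustment p was under 0.05 for 2 genes on the higher and 3 on the lower side. Aldh1a1, which makes retinoic acid and is found in a subset of dopamine neurons, had 14.6, 19.6 and 21.8 RPKM in I1h/R6h, against 35.3, 38.6 and 27.4 RPKM in Sham. The groups lay apart. On the log2 scale the difference was −0.91 ± 0.17 (SE), and its adjusted p was 0.139 in edgeR and 0.00016 in DESeq2. The partner receptor Rxra had −0.29 and Aldh1a2, a related enzyme, −0.49. Rara, a receptor related to Rarb, had 0.44, with edgeR adjusted p of 0.218 to 0.293 for these 3 genes.

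Markers of other brain regions and cells moved between the same libraries. Genes of thalamus and hypothalamus had summed levels of 276, 96.8 and 265 RPKM in I1h/R6h, against 132, 117 and 211 RPKM in Sham, so that the 3 libraries with the highest values for Drd1 were also the 3 highest here. Oxt, the oxytocin precursor of the hypothalamus, was counted 1232, 0 and 131 times in I1h/R6h, against 3, 3 and 249 times in Sham, and 0 of the 14 tested genes of this list were called by edgeR, by DESeq2 or at an unadjusted p under 0.05. Slc17a6, the vesicular glutamate transporter of thalamic neurons, was lowest in I1h/R6h replicate 1, as were Tcf7l2, Prkcd, Lef1 and Synpo2 of this list. By normalised log2 CPM 6 of the 14 tested genes were highest in that library, so the list did not move as one. Striatal interneuron genes had 10 of 11 log2 fold changes above 0 and a median of 0.43, with 0 called by edgeR or DESeq2 and 1 lower at an unadjusted p under 0.05 (Pvalb, −0.42). Chat, which makes acetylcholine in the cholinergic interneurons that also express Isl1, was counted 346, 42 and 110 times in I1h/R6h, against 67, 74 and 72 times in Sham. Genes of dopamine neurons, whose cell bodies lie in the midbrain, had 0 of 7 log2 fold changes above 0 and a median of −0.65, with 0 called by edgeR or DESeq2 and 1 lower at an unadjusted p under 0.05 (Ddc). Slc6a3, the dopamine transporter, had 0.256, 11.2 and 8.10 RPKM in I1h/R6h, against 11.5, 13.2 and 4.88 RPKM in Sham. It was near 0 in the library with the highest level of all 9 genes. The part of these regional differences in the values of the 9 genes was not tested.

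**Figure D4:**
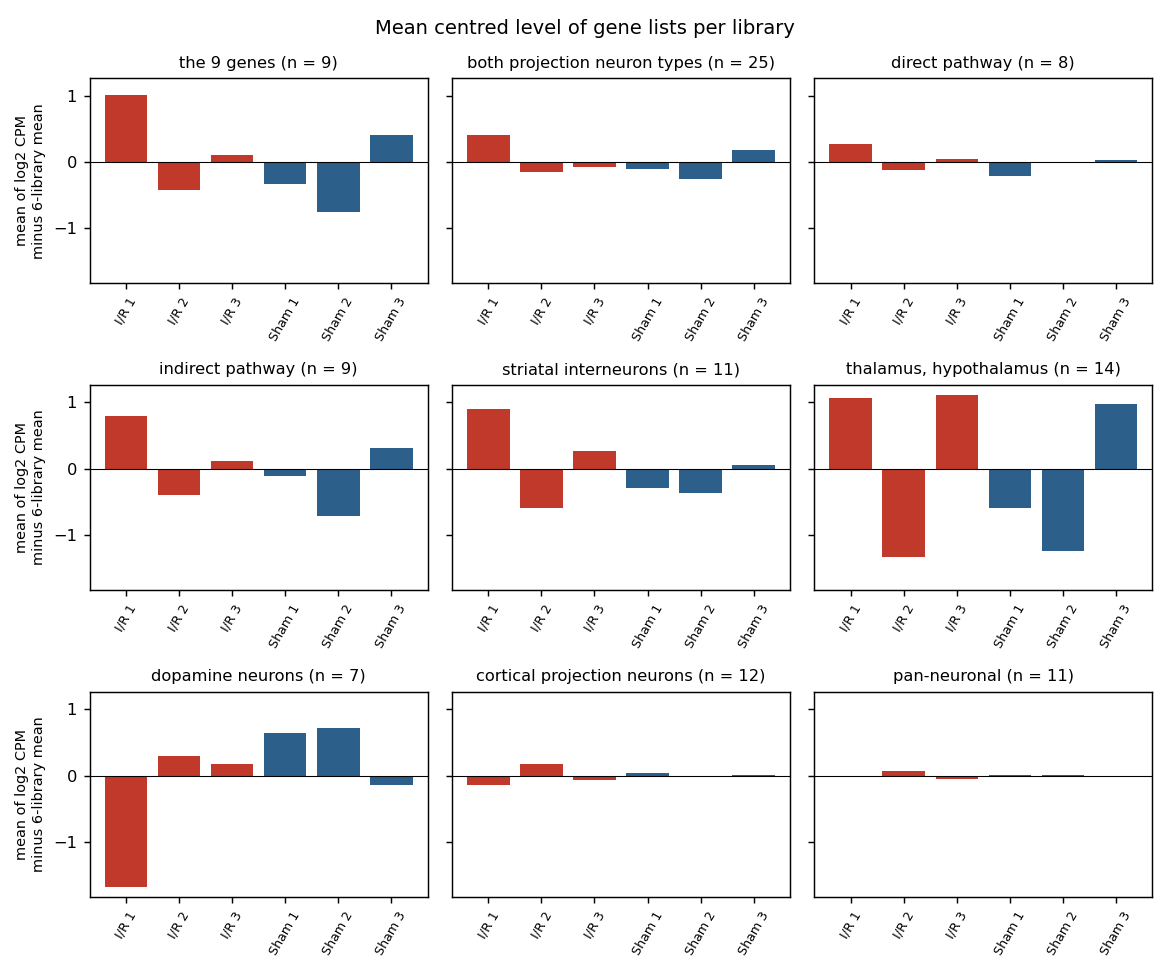
Mean over each list of log2 CPM minus the 6-library mean, per library, with I1h/R6h in red on the left and Sham in blue on the right, and n the number of genes tested. The 9 genes stand at 1.01 in I1h/R6h replicate 1, thalamus and hypothalamus at 1.07 and dopamine neurons at −1.69, while pan-neuronal genes stay within 0.12. The thalamus and hypothalamus list is a mean of genes that did not move as one.

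Cortical and glial markers did not follow the striatal order. Cortical projection neuron genes had summed levels of 277 to 338 RPKM in I1h/R6h and 281 to 316 RPKM in Sham, with a median log2 fold change of −0.002, 0 of 12 called and 1 lower at an unadjusted p under 0.05 (Rorb). Pan-neuronal genes had 5 of 11 log2 fold changes above 0, 0 called and a median of −0.01, while before adjustment p was under 0.05 for 1 gene on the higher and 2 on the lower side. The inhibitory neuron genes Slc32a1, the vesicular GABA transporter, and Gad2, which makes GABA, had log2 fold changes of 0.40 and 0.28 with edgeR adjusted p of 0.16 and 0.35. Both were highest in I1h/R6h replicate 1. By RPKM the groups of neither gene overlapped, but for Gad2 I1h/R6h replicate 2 (25.44 RPKM) only just exceeded Sham replicate 3 (25.35 RPKM). By normalised log2 CPM Slc32a1 alone among the pan-neuronal genes lay wholly higher. Tubb3 and Stmn2 went the other way, with log2 fold changes of −0.32 and −0.23 and edgeR adjusted p of 0.194 and 0.3. Each was lower in every I1h/R6h library than in every Sham library. Summed levels were 938 to 2604 RPKM in I1h/R6h and 1121 to 1452 RPKM in Sham for oligodendrocyte genes, highest in I1h/R6h replicate 3. For choroid plexus genes they were 9.69 to 953 RPKM in I1h/R6h and 432 to 599 RPKM in Sham, lowest in I1h/R6h replicate 2. The median log2 fold change was 0.33 for oligodendrocyte genes, −0.25 for choroid plexus genes, −0.24 for astrocyte genes, 0.17 for microglia genes, 0.02 for endothelial genes and 0.42 for blood genes, each with 0 called by edgeR. DESeq2 called 2 of 8 microglia genes (Cx3cr1 and Sall1) and 2 of 6 blood genes (S100a8 and S100a9) higher. It called 1 of 10 astrocyte genes (Gjb6) lower, against 1.8% of the rows to which it gave an adjusted p, in either direction. Unadjusted p under 0.05 gave 3 of 8 microglia, 2 of 6 blood and 3 of 10 astrocyte genes, in the same directions. It gave 0 in the oligodendrocyte, endothelial and choroid plexus lists, against 15.6% of all rows tested in either direction.

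Rows named for cDNA clones inside the 9 genes gave a second view of the same loci. There were 15 such rows within the spans of Drd1, Pde10a, Rarb, Bcl11b and Isl1, all on the gene's strand, and 13 were tested. Of these 11 had a log2 fold change above 0, against 53.1% of all rows (44.2% of gene-symbol rows), and 0 were called by edgeR. Some of them count reads of the gene row again, so they are no independent replicates. By RPKM, 3 of the 8 tested clones under 5% of the gene's RPKM lay wholly higher in I1h/R6h, and 0 of the 5 others. The 5% cut was not planned, and 6 of these 8 clones lie in Bcl11b, so they are not separate observations. Of all rows tested, 10.8% lay wholly higher by normalised log2 CPM, and of gene-symbol rows 7.37%. All rows are gene-symbol rows and clone rows. Over clone rows alone this share, and that of fold changes above 0, must therefore exceed those of all rows. The 2 clones named below are among the 3 that lay wholly higher and were picked after their values were seen. In Bcl11b, 2 clones at 28.8% and 101% of the gene's RPKM had log2 fold changes of −0.19 and −0.13. The other 6 clones of Bcl11b, single blocks at 2.04% to 3.03% of the gene's RPKM, had 0.25 to 1.03. The clone row fantom3_5830468D02, on chromosome 12 from 107985254 to 107988107, had 73, 44 and 48 counts in I1h/R6h, against 45, 13 and 23 in Sham. Its 3 I1h/R6h values, scaled to library totals, exceeded every Sham value, with a log2 fold change of 1.03 ± 0.40 (SE, edgeR adjusted p = 0.26). In Pde10a, the clone row fantom3_9430040M02, on chromosome 17 from 8913527 to 8916383, had 68, 52 and 62 counts in I1h/R6h, against 24, 32 and 43 in Sham (log2 fold change 0.88 ± 0.29, SE, edgeR adjusted p = 0.214). The same library order as in the Pde10a row was not seen there, since I1h/R6h replicate 2 lay above all Sham libraries.

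The authors' deposited table gave another count of calls for the same genes. In the authors' deposited table, 9 of 9 genes had a q-value under 0.05 and were higher in I1h/R6h, against 14.7% of its rows. The q-values of the authors' deposited table ranged from 2.1e-14 for Drd1 and Rgs9 to 0.0499 for Pde1b. The log2 fold changes in the authors' deposited table were 0.55 for Drd1, 0.85 for Drd2, 0.44 for Ppp1r1b, 0.06 for Pde1b, 0.08 for Bcl11b and 1.21 for Isl1. No source used here states the test behind the authors' deposited table.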

How the data were processed

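According to the labels' protocols, ribosomal RNA was removed from brain total RNA, and libraries from a NEBNext Ultra kit were sequenced from both ends. Per the submitters' processing notes the build was mm10. The aligner, the counting program, its annotation and its use of strand are not stated in any source read here. The authors deposited counts, whole numbers for each row of 6 libraries. Their deposited RPKM values equal counts scaled to row length and column total (100% of values within a relative 0.001). The authors' table holds mean RPKM, log2 fold changes, p-values and q-values. Counts of 40170 rows were tested with edgeR 4.0.16 (R 4.3.3; TMM, filterByExpr, robust quasi-likelihood F test, two-sided, Benjamini-Hochberg, threshold 0.05), with no covariate. An SE is the log2 fold change divided by the square root of F. Normalised log2 CPM used a prior count of 2. The fits were tested on simulated data.

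The 9 genes and all lists were chosen with earlier results of these data known. Named were the 9 genes, up to 4 genes per list with the smallest p, Penk, Adora2a, Tac1, Pdyn and Adcy5, and the 10 most alike genes (1 gene that the rule names is not reported here); Drd3, Slc6a3 and the clones were named after their values were seen, and not every gene the list rule allows is printed. Alternatives were RLE factors, 2 other low-count filters, DESeq2 1.42.0, limma-voom (limma 3.58.1), gene-symbol rows alone, no robust estimation, the replicate block and leaving out each library. Promoter windows come from RefSeq (GRCm38.p6).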

Additional observations from a re-analysis of the deposited data

How the results depend on the processing

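None of the 9 genes was called in any of the 14 alternative fits. The number of rows called was 1 in the fit as reported, 77 with no low-count filter, 0 with a mean of at least 1 CPM, 584 with DESeq2, 4 with limma-voom, 0 with gene-symbol rows alone and 0 with the replicate block, and 0 to 1057 when 1 library was left out, the highest without I1h/R6h replicate 1. The unadjusted p was under 0.05 for Drd2 in DESeq2 (0.0251, adjusted 0.242), with the replicate block (0.0318), without I1h/R6h replicate 2 (0.0116) and without Sham replicate 3 (0.0211), and for Isl1 without Sham replicate 3 (0.00641), and for none of the 9 genes in the other fits. Pde1b turned negative with RLE factors (−0.007), no low-count filter (−0.005), DESeq2 (−0.007), limma-voom (−0.005) and the replicate block (−0.009). Leaving out 1 library gave log2 fold changes of −0.32 to 1.00 for Drd1, 0.33 to 1.17 for Drd2, −0.31 to 0.735 for Ppp1r1b, 0.04 to 1.16 for Rgs9, −0.08 to 0.725 for Pde10a, −0.19 to 0.13 for Pde1b, −0.013 to 0.80 for Rarb, −0.076 to 0.14 for Bcl11b and 0.53 to 2.43 for Isl1. The lowest of these came without I1h/R6h replicate 1 for all but Bcl11b, whose lowest came without Sham replicate 2. The same step moved the Drd1 to Drd2 log2 ratio difference over −0.56 to −0.24, the median of genes of both projection neuron types over −0.079 to 0.33, of direct pathway genes over 0.03 to 0.195 and of indirect pathway genes over −0.21 to 0.79. The cause of these shifts was not tested. Same-numbered libraries deviated together little over all rows tested (correlations −0.068, 0.034 and 0.11 for replicates 1, 2 and 3). The labels do not say whether they share more than a number. These correlations cannot settle it, because wide differences between libraries of one group could hide a small shared part. With the replicate block Drd2 had 0.74 and an edgeR adjusted p of 0.311, and Isl1 had 1.33 and 0.347. Counts of 15 to 196 per library limit the precision for Isl1.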
